A study of Mus musculus with 4 samples.

Results

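The genes described here are 10 brakes and gatekeepers of the G1 phase of the cell cycle. They are the CDK inhibitors *Cdkn1a*, *Cdkn1b*, *Cdkn1c*, *Cdkn2a*, *Cdkn2b* and *Cdkn2c*, the tumour suppressor *Trp53* and its antagonist *Mdm2*, and the D cyclins *Ccnd1* and *Ccnd2*. They were chosen by symbol, and each of the 10 matched exactly 1 of the 28006 features of the count files. The rule uses the symbols alone and no measured value, but it was set with earlier results of these data known.

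D cyclins bind CDK4 and CDK6 and carry a resting cell through G1 toward DNA synthesis. Inhibitors of the INK4 group (*Cdkn2a*, *Cdkn2b*, *Cdkn2c*) block those kinases directly, whereas the Cip/Kip group (*Cdkn1a* or p21, *Cdkn1b* or p27, *Cdkn1c* or p57) binds cyclin-CDK complexes more broadly. p53, the product of *Trp53*, turns on *Cdkn1a* and also *Mdm2*, whose product in turn degrades p53. *Cdkn2a* encodes an INK4 protein and, from another first exon, the Arf protein that restrains MDM2. In the bone marrow, stromal reticular cells rarely divide while erythroid and granulocytic precursors divide often.

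Cells were sorted from the femurs of mice carrying *Cxcl12-iCreER*, a tamoxifen-inducible Cre driven from a *Cxcl12* transgene, and *R26R*(tdTomato/+), a red reporter that the Cre switches on. The mice received tamoxifen 7 days before the marrow of the right femur was removed by surgery. The sorted population was called Cxcl12CE-tdTomato+ and was taken 7 days after surgery from ablated femurs (ABL) and, as the control, from unoperated contralateral femurs (CONT) of the same animals, which had therefore also received tamoxifen and carried the same alleles. Each condition had 2 libraries, replicate 1 with Chromium chemistry version 2 and replicate 2 with version 3, and animals were pooled within replicate 1, so replicate and chemistry cannot be told apart. The libraries are written CONT1 and ABL1 for replicate 1 and CONT2 and ABL2 for replicate 2. The labels used here give no age for the mice.

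Libraries held 22889380 to 44784072 UMIs (unique molecular identifiers, 1 per captured transcript), and 1459 to 3433 barcodes per library were taken as cells, with median depths of 5714 and 7338 UMIs in CONT1 and ABL1 and of 12895.5 and 12283 UMIs in replicate 2. Cell types were read from fixed marker genes and are written with "-like". Not all sorted cells were of the labelled kind: hematopoietic cells made up 2027 of 3433 cells in CONT1, 767 of 1459 in ABL1, 326 of 2404 in CONT2 and 613 of 2537 in ABL2. Reticular-like cells, which carry *Cxcl12*, *Adipoq*, *Lepr* and *Kitl*, numbered 1181, 415, 1956 and 344 in the same order, and their 10 markers were each found in at least 10% of the cells of every library. In reticular-like cells the summed level of 20 hematopoietic genes was higher in replicate 1. It was 32960 and 27730 counts per 1000000 UMIs (CPM) in CONT1 and ABL1 against 478 and 2174 CPM in replicate 2. The free-RNA share estimated for these cells was 12.81% and 17.43% of UMIs in CONT1 and ABL1. It was 0.8876% in CONT2 but 10.96% in ABL2, so CONT2 alone was low. All mesenchymal cells had shares of 12.25%, 12.24%, 1.473% and 10.71% in CONT1, ABL1, CONT2 and ABL2. Hematopoietic cells of CONT2 had 9.137%, within the range of the other libraries, 5.379% to 11.22%. CONT1 and ABL1 shared 5 cell barcodes and those of replicate 2 shared 1.

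*Cdkn2a* and *Cdkn2b* are neighbours on chromosome 4 of the mouse genome (GRCm38), both on the minus strand, and the sequences before their starts are shown because *Cdkn2a* has 2 starts whose transcripts end in shared exons. The libraries read the 3′ end of a transcript, so UMIs of *Cdkn2a* cannot be divided between the INK4 and the Arf product. The starts lie 12427 bases apart, and the more upstream of them lies 16413 bases from the start of *Cdkn2b*. The windows below (RefSeq starts, build GRCm38.p6, read 5′ to 3′ along the minus strand, cut where an exon of the gene begins) are chr4:89294654-89294869 before the more upstream *Cdkn2a* start, chr4:89282193-89282442 before the more downstream one, which lies inside the gene and overlaps no annotated exon, and chr4:89311040-89311282 before *Cdkn2b*. Capitals mark matches on either strand to GGGCGG, the letters of a box bound by Sp factors, to TATAAA, which many promoters hold upstream of the start, to CCAAT, which is read by the factor NF-Y, to CACGTG, the E-box, and to TTTNNCGC, a loose form of the E2F site.
Cdkn2a, upstream start: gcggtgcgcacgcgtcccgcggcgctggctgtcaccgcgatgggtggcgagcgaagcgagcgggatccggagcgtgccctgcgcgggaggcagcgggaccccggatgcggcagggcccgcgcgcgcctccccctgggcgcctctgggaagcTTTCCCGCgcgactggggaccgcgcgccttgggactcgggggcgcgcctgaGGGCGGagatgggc
Cdkn2a, downstream start: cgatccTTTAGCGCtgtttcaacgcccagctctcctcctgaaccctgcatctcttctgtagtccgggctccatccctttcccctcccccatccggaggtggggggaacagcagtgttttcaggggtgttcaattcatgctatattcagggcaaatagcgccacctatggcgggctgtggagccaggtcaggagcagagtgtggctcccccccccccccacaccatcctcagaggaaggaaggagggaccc
Cdkn2b: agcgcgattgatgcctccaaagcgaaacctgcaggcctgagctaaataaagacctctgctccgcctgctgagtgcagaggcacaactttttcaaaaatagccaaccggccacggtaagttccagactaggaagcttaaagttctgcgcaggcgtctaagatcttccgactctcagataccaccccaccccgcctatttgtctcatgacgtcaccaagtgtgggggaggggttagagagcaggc
Each *Cdkn2a* window held 1 match to TTTNNCGC, a string found in 4.28% of 32851 mouse promoter windows of 250 bases, and the upstream one also held 1 GGGCGG, found in 32.7% of them. The *Cdkn2b* window held none of the 5 strings. Among the other members with a window, *Mdm2* also held 1 TTTNNCGC match. A match is a string of letters and not a shown binding site.

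The members differed in the cells in which they were found. *Cdkn1a*, *Cdkn1c* and *Ccnd2* were genes of the stroma, *Cdkn2c* was high in cycling-like mesenchymal, B-lineage-like and erythroid-like cells, *Trp53* and *Mdm2* were found in nearly every class, and *Ccnd1*, *Cdkn2a* and *Cdkn2b* were scarce in most cells of unoperated femurs. Of the 120 levels of the 10 genes in reticular-like, all mesenchymal and all hematopoietic cells of the 4 libraries, 44 reached 50 CPM. Levels are compared here for the same gene between cells, not between genes.

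**Figure D1:**
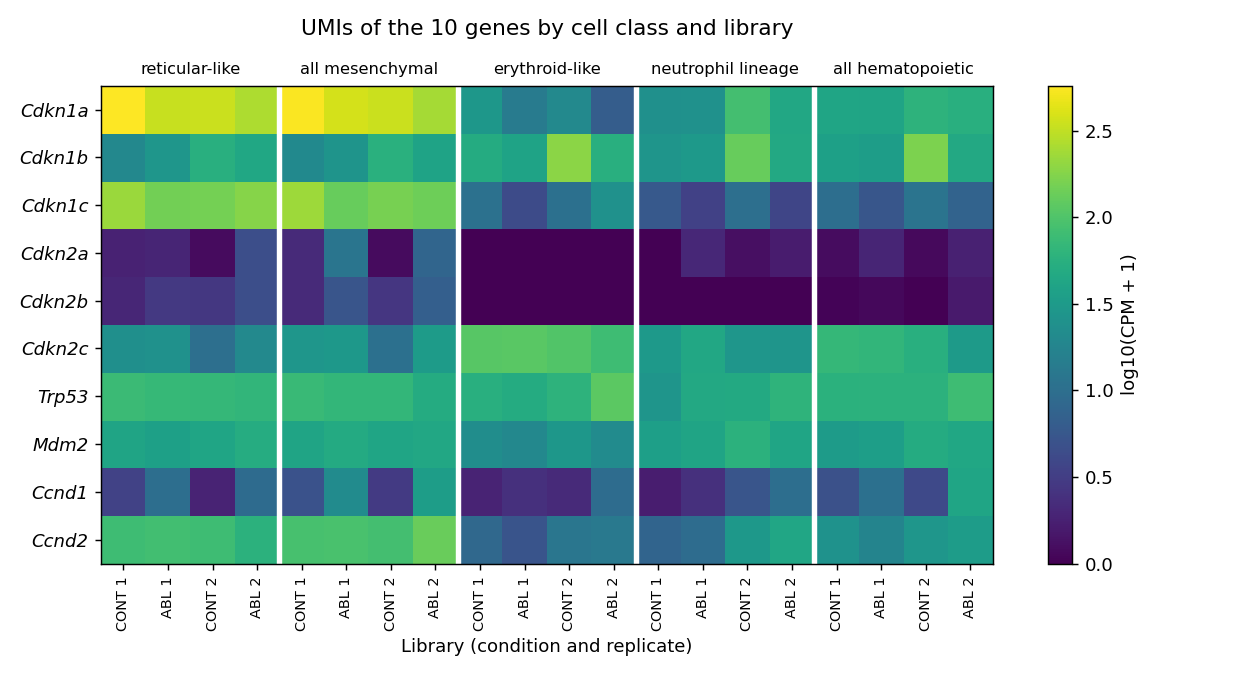
Level of each of the 10 genes (rows) as log10(CPM + 1) in the summed UMIs of 5 groups of cells, each in the 4 libraries (columns, CONT and ABL of replicates 1 and 2). Cdkn1a and Cdkn1c are bright in reticular-like and mesenchymal cells, Cdkn2c in erythroid-like cells, and Cdkn2a and Cdkn2b are dark in every hematopoietic column.

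*Cdkn1a*, the p53-induced inhibitor, was measured in reticular-like cells at 576 CPM in CONT1 and 337 CPM in ABL1, and at 342 CPM in CONT2 and 264 CPM in ABL2. All hematopoietic cells of the same libraries gave 41.4, 40.0, 59.8 and 54.2 CPM, so the lineages did not overlap. Over all mesenchymal against all hematopoietic cells of the 4 libraries the difference was 2.68 on the log2 scale (SE 0.20, adjusted p = 0.000371, edgeR quasi-likelihood test with the library as a block and Benjamini-Hochberg adjustment), higher in mesenchymal cells in 4 of 4 libraries. That test, like the other comparisons of lineages below, takes the 4 libraries as independent, although CONT and ABL of a replicate were described as the same animals. Endothelial-like cells were also high, at 390 to 893 CPM over 3 libraries. Pre-osteoblast-like cells had 722 CPM in CONT1 and 786 CPM in ABL1, whereas erythroid-like cells stayed between 5.58 and 28.3 CPM. At a common depth of 2000 UMIs per cell, 31.1 to 56.1% of reticular-like cells had a *Cdkn1a* UMI against 4.64 to 10.1% of cells of the neutrophil lineage (clusters that scored highest for granulocyte precursor, immature or mature neutrophil markers, named or not).

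*Cdkn1c*, the inhibitor known for holding stem and stromal cells in quiescence, was in reticular-like cells at 219 and 148 CPM in CONT1 and ABL1 and at 150 and 179 CPM in replicate 2. Hematopoietic cells had 9.01, 4.55, 10.5 and 6.56 CPM in that order. The mesenchymal excess was 4.21 on the log2 scale (SE 0.18, adjusted p = 0.000169), again in 4 of 4 libraries. Chondrocyte-like cells of ABL2 reached 358 CPM and endothelial-like cells 147 to 287 CPM. Osteoblast-like cells, the mature bone-forming cells, had only 20.8 and 28.8 CPM in the ABL libraries of replicates 1 and 2 and cycling-like mesenchymal cells of ABL2 had 22.1 CPM.

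*Ccnd2*, a D cyclin, was likewise a stromal gene in these libraries. Mesenchymal cells had 89.0 and 92.2 CPM in CONT1 and ABL1 and 85.6 and 134 CPM in replicate 2, against 24.6, 16.7, 27.1 and 32.3 CPM in hematopoietic cells (1.77 on the log2 scale, SE 0.19, adjusted p = 0.000943, higher in 4 of 4 libraries). Within the mesenchymal lineage pre-osteoblast-like cells of replicate 1 (312 CPM in CONT, 178 CPM in ABL) and periosteal-like cells of replicate 2 (274 CPM in CONT, 154 CPM in ABL) lay above reticular-like cells, which ranged from 59 to 82.2 CPM. Some hematopoietic classes were exceptions. Lymphoid cells had 67.8 to 136 CPM in B-lineage-like cells over 3 libraries and 296 CPM in T/NK-like cells of ABL2. Dendritic-like cells had 57.3 CPM in CONT1 and 62.7 CPM in ABL1. Monocyte/macrophage-like cells had 67.6 CPM in CONT1 but 6.1 CPM in ABL1 and 15.4 CPM in ABL2. Immature neutrophil-like cells had at most 1.56 CPM.

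The INK4 inhibitor *Cdkn2c* and the Cip/Kip inhibitor *Cdkn1b* went the other way. *Cdkn2c* had 68.5, 64.9, 54.3 and 30.7 CPM in hematopoietic cells of CONT1, ABL1, CONT2 and ABL2, and 27.6, 28.6, 9.35 and 31.4 CPM in mesenchymal cells. In ABL2 the levels were nearly equal and in the other 3 libraries hematopoietic cells were higher, and over the 4 libraries *Cdkn2c* was lower in mesenchymal cells by -1.51 on the log2 scale (SE 0.46, adjusted p = 0.0347). It was high where precursors divide, at 79.0 to 114 CPM in erythroid-like cells of the 4 libraries, 90 CPM in granulocyte precursor-like cells of ABL1 and 149 CPM in cycling-like mesenchymal cells of ABL2, and low in immature neutrophil-like cells, at 3.11 to 3.33 CPM over 3 libraries.

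*Cdkn1b* was lower in mesenchymal than in hematopoietic cells by -0.99 on the log2 scale (SE 0.27, adjusted p = 0.0239), a call that was lost without the library term and with totals in place of TMM scaling (highest adjusted p = 0.111). A single library stood apart for this gene: hematopoietic cells of CONT2 had 162 CPM, against 35.7, 33.7 and 45.7 CPM in CONT1, ABL1 and ABL2. The excess was present in its B-lineage-like cells (269 CPM), its erythroid-like cells (190 CPM) and its cells of the neutrophil lineage (129 CPM). Its mesenchymal cells, at 56.2 CPM, were also the highest of the 4 libraries, the lowest having 19.4 CPM. Reticular-like cells had 18.7 and 27.5 CPM in CONT1 and ABL1 and 54.8 and 43.1 CPM in CONT2 and ABL2.

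*Trp53* and *Mdm2* showed little difference between lineages. *Trp53* ranged from 64.8 to 74.9 CPM in reticular-like cells of the 4 libraries and from 56.5 to 78.8 CPM in hematopoietic cells, and *Mdm2* from 36.3 to 50.3 CPM and from 32.1 to 48.5 CPM. Neither passed the test of mesenchymal against hematopoietic cells, with differences of -0.22 (SE 0.16, adjusted p = 0.283) and -0.09 (SE 0.14, adjusted p = 0.6) on the log2 scale, and with totals in place of TMM scaling both differences changed sign. They parted in some classes, among them immature neutrophil-like and osteoblast-like cells. Immature neutrophil-like cells had 15.6 to 16.3 CPM of *Trp53*, below the 121 to 139 CPM of B-lineage-like cells. *Mdm2* was at 38.9 to 44.4 CPM in immature neutrophil-like cells and 37.5 to 53.9 CPM in B-lineage-like cells, ranges that overlapped. Osteoblast-like cells of ABL1 and ABL2 had 19.4 and 25.4 CPM of *Trp53* and 49.9 and 49.8 CPM of *Mdm2*. Granulocyte precursor-like cells of ABL1, also of the neutrophil lineage, had 84.6 CPM of *Trp53* and 38.9 CPM of *Mdm2*.

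In the comparison of lineages 3 of the 8 members tested were higher and 2 lower in mesenchymal cells, beside 32.9% and 26.7% of all 12431 genes tested, so a call in this comparison was common. Of 28 genes of the G1 to S step fixed for comparison, 27 were tested and 21 were lower and 3 higher in mesenchymal cells, and of 22 proliferation genes 21 were lower and 0 higher (0 of the 22 had a positive difference). Of 30 p53 target genes, a list that holds *Cdkn1a* and *Mdm2*, 28 were tested, of which 8 were higher and 4 lower.

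*Ccnd1* was the member that differed between ablated and contralateral femurs in each of the 3 large groups of cells. This D cyclin is induced by growth signals at the entry to the cycle. In reticular-like cells it had 2.48 CPM (15 UMIs) in CONT1 and 9.06 CPM (29 UMIs) in ABL1, and 0.887 CPM (23 UMIs) and 8.33 CPM (23 UMIs) in replicate 2. The difference was 2.46 on the log2 scale (SE 0.52, adjusted p = 0.000162, edgeR quasi-likelihood test with the replicate as a block), higher in ABL in 2 of 2 replicates. The block takes the femurs of a replicate as pairs, yet 4 Y-linked genes summed to 89.6 and 23.8 CPM in reticular-like cells of CONT1 and ABL1 and to 58.7 and 162 CPM in CONT2 and ABL2, and whether these femurs were matched mouse for mouse is in doubt. It was the only 1 of the 8 members tested that was called in reticular-like cells, beside 2.46% of 11528 genes called higher and 2.22% called lower.

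The reticular result rested on few UMIs. In ABL1, 13 of the 29 came from a cluster of 78 cells (23.7 CPM) led, against the other reticular-like cells, by hemoglobin genes. Other clusters of ABL1 had 0.959 to 13.7 CPM. In ABL2, 7 of the 23 came from a cluster of 57 cells (14.8 CPM) led likewise by *Rgs5* and *Acta2*. Other clusters of ABL2 had 0 to 19.2 CPM. Some reticular-like clusters were led, against the other mesenchymal cells of their library, by hemoglobin or neutrophil genes. In 3 clusters the 10 leading genes in a library held more markers of a hematopoietic class than of their own. With these left out the difference was 2.23 (adjusted p = 0.00734, edgeR). Among them was a cluster of 540 cells in CONT2 and 122 in ABL2, flagged for 1 dendritic marker in CONT2. Its leading genes included no hemoglobin or neutrophil gene, and in ABL2 they held 4 reticular markers. Empty droplets held *Ccnd1* at 2.18 and 8.68 CPM in CONT1 and ABL1 and 6.92 and 21.1 CPM in replicate 2, levels that were also higher in ABL in both replicates. With the free-RNA share estimated for each library subtracted the difference was 2.39 (adjusted p = 0.00335), and erythroid-like cells, which should carry little *Ccnd1*, had 0.895 and 1.39 CPM in replicate 1 and 1.11 and 8.37 CPM in replicate 2. At 2000 UMIs per cell, 0.169% and 1.45% of reticular-like cells of CONT1 and ABL1 had a *Ccnd1* UMI and 0.409% and 1.45% in replicate 2, against 0% and 0.312% of neutrophil-lineage cells in CONT1 and ABL1 and 1.01% and 1.89% in replicate 2. The shares of reticular-like cells were thus above that background in replicate 1 and below it in replicate 2. The call was lost with DESeq2 (2.44, adjusted p = 0.0621), without the replicate block (2.33, adjusted p = 1), without integration of the libraries before clustering (1.87, adjusted p = 0.199) and in cells with a Y-linked and no *Xist* UMI (2.98, adjusted p = 0.068).

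**Figure D2:**
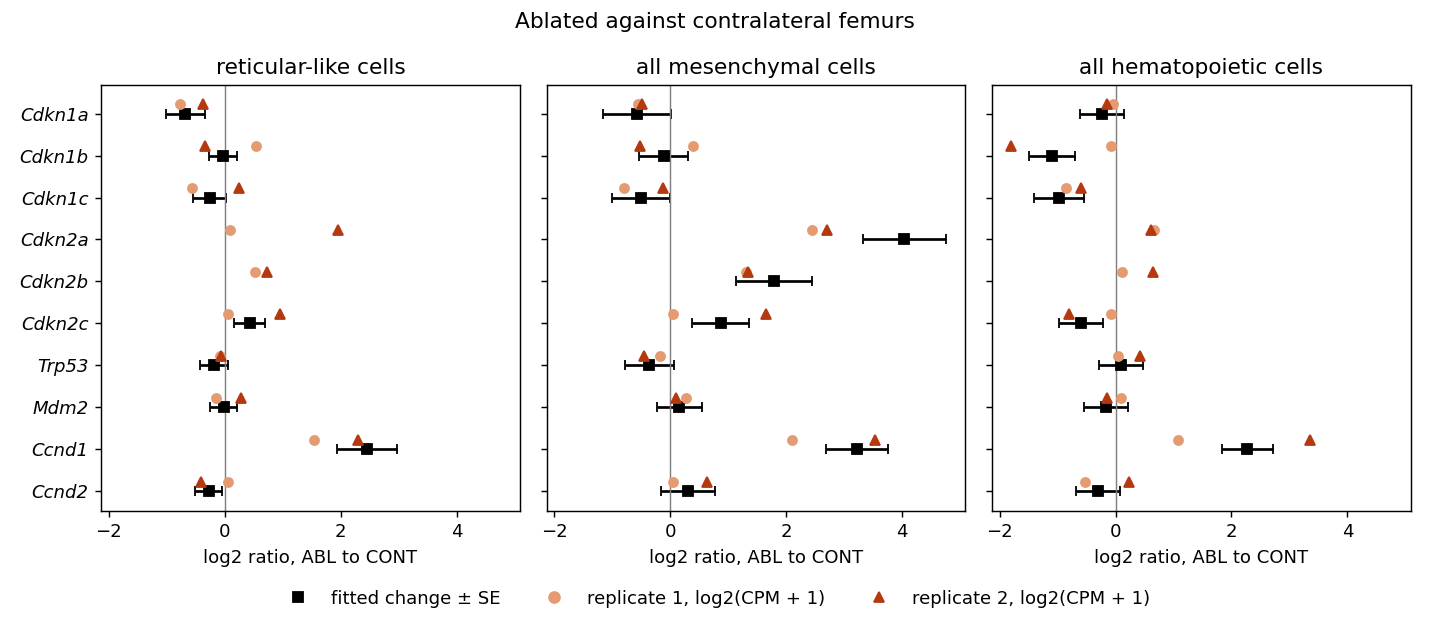
Change of each member between ablated and contralateral femurs on the log2 scale in 3 groups of cells: squares with bars give the fitted change ± SE, circles and triangles the log2 ratio of CPM + 1 within replicates 1 and 2. Ccnd1 lies right of 0 in every panel and in both replicates, and Cdkn2a in the mesenchymal panel; a gene with no square was too low to be tested.

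Over all mesenchymal cells *Ccnd1* had 4.02 CPM in CONT1 and 20.7 CPM in ABL1 and 1.96 and 33.1 CPM in replicate 2, a difference of 3.22 on the log2 scale (SE 0.54, adjusted p = 0.0143). *Cdkn2a* was the other member called there, at 1.15 CPM (8 UMIs) and 10.7 CPM (65 UMIs) in replicate 1 and 0.217 CPM (6 UMIs) and 6.95 CPM (178 UMIs) in replicate 2, a difference of 4.04 (SE 0.72, adjusted p = 0.0197). Thus 2 of 10 members were called higher and 0 lower, beside 1.53% and 0.517% of 13734 genes. The neighbour of *Cdkn2a*, *Cdkn2b*, had 1.15 and 4.30 CPM in replicate 1 and 1.74 and 5.93 CPM in replicate 2. It did not pass the test (1.79, SE 0.65, adjusted p = 0.193, edgeR). With free RNA subtracted the values of *Ccnd1* and *Cdkn2a* were 3.32 and 4.06 with adjusted p = 0.0955 and 0.105. Without the replicate block they were 3.21 and 3.82, each with adjusted p = 0.504.

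These sums mix classes whose shares differed. Periosteal-like cells, for instance, were 1124 of 1809 mesenchymal cells in ABL2 and 52 of 2053 in CONT2. In replicate 1 they were only 8 of 1318 in CONT1 and 11 of 692 in ABL1, so their large share was seen in ABL2 alone. *Cdkn2a* UMIs lay mostly in a small part of the lineage. In ABL1, 51 of the 65 UMIs came from a cluster of 62 cells led by *Rgs5*, *Fabp4* and *Acta2*, where the level was 68.9 CPM (exact Poisson 95% interval 51.3 to 90.6, counting error only). In ABL2, 65 of the 178 UMIs came from a cluster of 136 cells led by *Tagln*, *Acta2* and *Spp1* (39.0 CPM, interval 30.1 to 49.7), 34 from 72 cycling-like cells (20.8 CPM) and 47 from the periosteal-like cells (2.75 CPM). *Rgs5*, *Acta2* and *Tagln* are genes of smooth muscle cells and pericytes (mural cells). Neither cluster met the rule for a name, the second because 4 mural and 0 pre-osteoblast markers stood among its 10 leading genes. Mural was not among the names open to these clusters, and mural cells were counted in the mesenchymal lineage.

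Within those clusters the cells whose UMIs of mural markers (*Rgs5*, *Acta2*, *Myh11*, *Tagln*, *Des*, *Cspg4* and *Notch3*; at least 3 UMIs and more than of endothelial or Schwann cell markers) were most numerous held *Cdkn2a* at 79.3 CPM (54.9 to 111, 34 cells) in ABL1 and at 49.0 CPM (36.5 to 64.4, 75 cells) in ABL2. Cells of these clusters with fewer than 3 UMIs of each marker set held *Cdkn2a* at 72.1 CPM (42 to 115, 16 cells) in ABL1. In ABL2 such cells held it at 22.3 CPM (12.2 to 37.4, 61 cells). That division was chosen after the values were seen. The 11 endothelial-marked cells of the first cluster had 0 *Cdkn2a* UMIs, which allows up to 43.5 CPM as a limit of 3 counts (the exact interval ends at 53.5 CPM). The same clusters held 13 cells in CONT1 and 35 in CONT2, with 0 *Cdkn2a* UMIs in each, which allows up to 57.0 and 5.97 CPM by the same limit (intervals end at 70.1 and 7.34 CPM). Only 9 of these cells in CONT1 and 10 in CONT2 were mural-marked. For them the limits were 87.1 and 20.7 CPM (intervals end at 107 and 25.5 CPM). In CONT1 that limit lay above the 79.3 CPM of the mural-marked cells of ABL1. Reticular-like cells gave 5, 3, 5 and 10 *Cdkn2a* UMIs in CONT1, ABL1, CONT2 and ABL2, too few for the gene to be tested there.

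*Ccnd1* was high in the same clusters, at 85.1 CPM (interval 65.4 to 109) in ABL1 and 97.1 CPM (82.7 to 113) in ABL2, with 63 of 125 and 162 of 848 mesenchymal UMIs. It reached further into the lineage than *Cdkn2a*, since periosteal-like cells of ABL2 held 500 of the 848 UMIs at 29.3 CPM, with 34.9 CPM (29 UMIs) already present in the 52 periosteal-like cells of CONT2, and cycling-like cells held 124 at 75.9 CPM. In ABL1 osteoblast-like cells had 26.3 CPM (19 UMIs), but in replicate 2 only 7.74 CPM (7 UMIs). Cells of the 2 clusters led by smooth muscle genes also had the highest *Cdkn2b* levels of their libraries, 13.5 CPM (10 UMIs) and 15 CPM (25 UMIs), although their intervals, 6.48 to 24.9 and 9.70 to 22.1 CPM, overlapped those of other clusters.

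**Figure D3:**
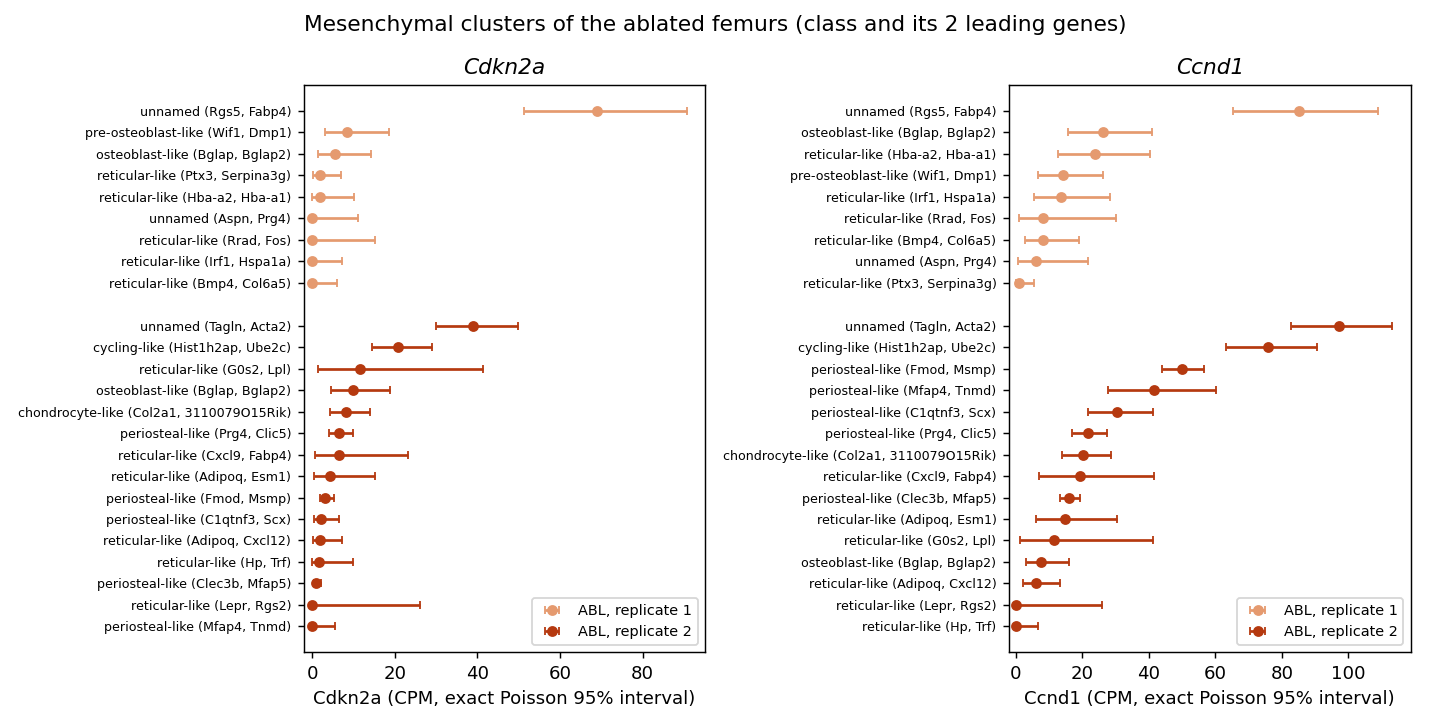
Level of Cdkn2a (left) and Ccnd1 (right) in CPM in each mesenchymal cluster of at least 20 cells in the ablated femurs, with exact Poisson 95% intervals; each row gives the class and the 2 leading genes of the cluster. In both replicates the cluster led by smooth muscle genes is highest for both genes, at 68.9 and 39.0 CPM of Cdkn2a and 85.1 and 97.1 CPM of Ccnd1.

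In hematopoietic cells *Ccnd1* had 3.89 and 9.36 CPM in CONT1 and ABL1 and 3.09 and 40.6 CPM in replicate 2, a difference of 2.27 on the log2 scale (SE 0.44, adjusted p = 2e-05). It was the only 1 of 8 members tested that was called, beside 3.85% of 11931 genes called higher and 2.61% called lower. The UMIs came from few classes. Dendritic-like cells had 99.5 CPM in CONT1 and 223 CPM in ABL1 and held 47.1% and 45.7% of the hematopoietic *Ccnd1* UMIs there. In ABL2 monocyte/macrophage-like cells (76.2 CPM) and osteoclast-like cells (75.6 CPM), the bone-resorbing cells, held 41.2% and 47.9%. In ABL1 these classes had 19.2 CPM (22 UMIs) and 6.57 CPM (3 UMIs), and monocyte/macrophage-like cells of CONT1 had 13.5 CPM (3 UMIs). Monocyte/macrophage-like cells numbered 36 in CONT1, 157 in ABL1 and 180 in ABL2, and osteoclast-like cells 20 in ABL1 and 81 in ABL2. The hematopoietic sums thus also mix classes whose shares differed. CONT2 had no cluster of these 3 names, so classes could not be matched across the 4 libraries. The call was lost with the neutrophil lineage left out (2.76, adjusted p = 0.275), with called doublets removed (2.32, adjusted p = 0.0712) and without the replicate block (2.52, adjusted p = 0.321).

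The ABL difference of *Ccnd1* in reticular-like cells minus that in hematopoietic cells was -0.02 on the log2 scale with an SE of 1.09 (adjusted p = 1, edgeR), too wide to tell whether the cells differed. Of 9 members tested for such a difference 0 were called, beside 0.0228% and 0.243% of 13148 genes called higher and lower. In that edgeR test only *Cdkn1b* passed without adjustment (0.99, SE 0.32, adjusted p = 0.284), beside 1445 of all 13148 genes. DESeq2 called 0 members.

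No member was called lower in ABL in any group of cells. In hematopoietic cells *Cdkn1b* came nearest (-1.10, SE 0.40, adjusted p = 0.0782), with ratios of -0.08 in replicate 1 and -1.80 in replicate 2 on the log2(CPM + 1) scale, so nearly all of the difference came from CONT2, the library that stood apart above. In reticular-like cells *Cdkn1a* was at 576 and 342 CPM in CONT and 337 and 264 CPM in ABL, and the difference did not pass the adjusted test (-0.68, SE 0.34, adjusted p = 0.34, edgeR). In erythroid-like cells *Cdkn1a* had 28.3 and 18.8 CPM in CONT and 12.9 and 5.58 CPM in ABL (-1.33, SE 0.49, adjusted p = 0.342). Empty droplets held *Cdkn1a* at 221 and 209 CPM in CONT1 and ABL1 and at 305 and 159 CPM in replicate 2. These levels lay above those of erythroid-like cells and were higher in CONT in both replicates. The part of free RNA in the erythroid difference was not tested. Of 7 members tested in erythroid-like cells and 8 in the neutrophil lineage 0 were called, beside 0.402% and 0.112% of 7454 and 9800 genes called higher and 0.268% and 0.0204% called lower. At an unadjusted p under 0.05 the edgeR test gave *Cdkn1a* and *Cdkn1b* in erythroid-like cells and *Cdkn1c* in the neutrophil lineage, all lower in ABL. It also gave *Cdkn1a* in reticular-like cells and *Cdkn1b* and *Cdkn1c* in hematopoietic cells. Such a pass was not rare over all genes tested. It was reached, in either direction, by 495 of 7454 genes in erythroid-like cells and 761 of 9800 in the neutrophil lineage. In reticular-like and hematopoietic cells it was reached by 1663 of 11528 and 1939 of 11931 genes. For *Cdkn1c* empty droplets had 51.5 and 49.8 CPM in CONT1 and ABL1 and 103 and 124 CPM in replicate 2, above its levels in hematopoietic cells. DESeq2, run for reticular-like, hematopoietic and mesenchymal cells, called 0 members lower.

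Genes induced by tissue dissociation had, like *Cdkn1a*, negative differences in reticular-like cells. Their list of 20 (*Fos*, *Jun*, *Hspa1a* and others) had 20 of 20 negative differences in reticular-like cells with 4 called lower, *Hspa1b* (-2.08, adjusted p = 1.2e-10), *Hspa1a* (-1.61, adjusted p = 3.8e-05), *Atf3* (-1.54, adjusted p = 1.5e-05) and *Hspb1* (-1.13, adjusted p = 0.000522). Their median was -0.71 against -0.01 over all genes. Their summed level was 20390 CPM in CONT1 and 14210 CPM in ABL1 and 23590 and 15850 CPM in replicate 2. Within reticular-like clusters *Cdkn1a* ranged from 46.0 to 850 CPM, and the libraries gave no single picture. In CONT2 the cluster with the lowest sum of dissociation genes (6624 CPM) had the lowest *Cdkn1a* (46.0 CPM) and the cluster with the highest sum (75950 CPM) the highest (676 CPM). Between these ends the order did not hold. Sums of 12690, 23330 and 25520 CPM went with 372, 444 and 423 CPM of *Cdkn1a*, and sums of 23660 and 25910 CPM with 136 and 144 CPM. In CONT1, 2 clusters with sums of 16810 and 17010 CPM had 187 and 827 CPM. Between conditions, *Cdkn1a* of a cluster was higher in ABL1 (753 CPM, 45 cells) than in CONT1 (615 CPM). In replicate 2 it was higher in a cluster of ABL2 (109 CPM, 26 cells) than in the same cluster of CONT2 (46.0 CPM). The other clusters with at least 20 cells in both libraries of a replicate were lower in ABL. The part of handling in the *Cdkn1a* difference was not tested.

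**Figure D4:**
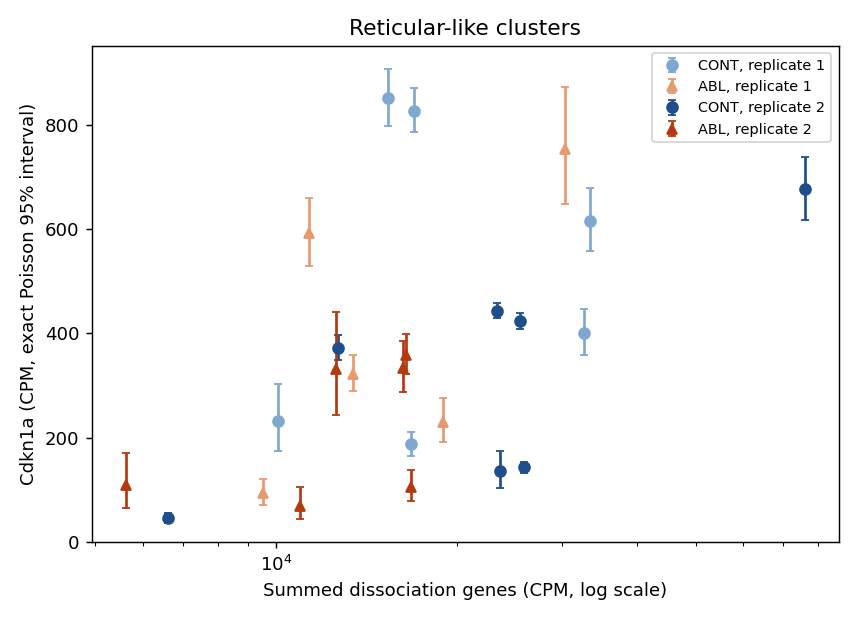
Level of Cdkn1a (CPM, exact Poisson 95% interval) against the summed level of 20 dissociation genes (CPM, log scale) in each reticular-like cluster of at least 20 cells, coloured by library. Cdkn1a spans 46.0 to 850 CPM, with the lowest and highest of CONT2 at the lowest and highest sums, 6624 and 75950 CPM. Between them CONT2 keeps no order, with 372 CPM at a sum of 12690 CPM and 144 CPM at 25910 CPM. In CONT1 the clusters at 16810 and 17010 CPM lie far apart at 187 and 827 CPM.

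The other members gave the following in ABL against CONT of reticular-like cells. *Cdkn2c* had 23.0 and 24.1 CPM in replicate 1 and 9.30 and 18.8 CPM in replicate 2 (0.43, SE 0.27, adjusted p = 0.523). *Cdkn1c* (-0.26, SE 0.29), *Ccnd2* (-0.28, SE 0.24), *Cdkn1b* (-0.03, SE 0.25), *Trp53* (-0.18, SE 0.24) and *Mdm2* (-0.02, SE 0.24) had adjusted p from 0.689 to 0.983. The CONT and ABL levels overlapped for each of these 6 genes. With 2 libraries per condition overlap or its lack says little, and its share over all genes is not given here.

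Few genes of the wider pathways were called in reticular-like cells. Of 25 p53 targets tested 15 had a positive difference, and 1 was higher, *Phlda3*, a repressor of AKT signalling, with 64.1 and 101 CPM in CONT1 and ABL1 and 37.5 and 80.7 CPM in replicate 2 (0.78, SE 0.24, adjusted p = 0.0294), 0 were lower and the median was 0.11, against -0.01 over all genes. The p53 targets of highest level were *Btg2* (509, 365, 862 and 691 CPM in CONT1, ABL1, CONT2 and ABL2), *Cdkn1a* and the apoptosis gene *Bax* (120, 145, 59 and 107 CPM). Of 23 G1 to S genes 1 was lower, *Myc*, a growth-promoting transcription factor, at 235 and 129 CPM in replicate 1 and 267 and 134 CPM in replicate 2 (-1.03, SE 0.30, adjusted p = 0.0154), and 0 were higher. Their differences were negative for 16 of 23, with a median of -0.24. *Cdk4*, the kinase partner of the D cyclins, had 108, 129, 54.2 and 88.0 CPM, and *Ccnd3*, the D cyclin outside the 10 members, had 118, 114, 69.7 and 75.3 CPM; neither was called.

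Of 18 proliferation genes tested in reticular-like cells 14 had a positive difference, with a median of 0.54, and 1 was higher, the mitotic kinase *Cdk1* (9.75 and 10.6 CPM in replicate 1, 0.424 and 7.60 CPM in replicate 2, 1.62, SE 0.45, adjusted p = 0.0105). The highest of the list, *Cenpa*, *Ube2c* and *Birc5*, were at 21.32 to 30.9 CPM in CONT1 and 13.75 to 15.94 CPM in ABL1. In replicate 2 they were at 0.887 to 1.62 CPM in CONT2 and 2.17 to 4.34 CPM in ABL2. The summed level of the list was 171 and 130 CPM in CONT1 and ABL1 and 21.0 and 68.4 CPM in replicate 2. It was thus lower in ABL in replicate 1 and higher in ABL in replicate 2. Thinned to 2000 UMIs, 10 of 1181, 1 of 415, 1 of 1956 and 1 of 344 reticular-like cells had at least 3 proliferation UMIs. Over all mesenchymal cells 12 of 1318 and 18 of 692 cells had them in CONT1 and ABL1 and 2 of 2053 and 75 of 1809 in replicate 2, and 22 of 22 proliferation genes had a positive difference (median 2.13) with 0 called. Hematopoietic genes, a measure of free RNA or of joined cells, gave 1 call in reticular-like cells, *Srgn* (-0.86, adjusted p = 0.0146). The highest of them, *S100a8*, *Hbb-bs* and *S100a9*, were at 5214 to 8249 CPM in replicate 1 and at 36.9 to 1140 CPM in replicate 2.

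Hematopoietic cells with and without proliferation UMIs were compared because the members act before DNA synthesis. Cells thinned to 2000 UMIs were divided into those with at least 3 UMIs of the 22 proliferation genes, none of which is a member (645 of 2027, 171 of 767, 118 of 326 and 169 of 613 cells), and those with none. The groups held different classes. Erythroid-like cells were 293 of 645, 74 of 171, 62 of 118 and 42 of 169 cells with proliferation UMIs in CONT1, ABL1, CONT2 and ABL2, and 74, 30, 0 and 0 of those without. The neutrophil lineage was 601 of 914, 212 of 415, 138 of 179 and 146 of 362 cells without them. *Cdkn2c*, a direct inhibitor of CDK4 and CDK6, was the member that differed most: in cells without proliferation UMIs it had 13.5 CPM in CONT1 and 13.2 CPM in ABL1 and 10.9 and 12.3 CPM in replicate 2, and in cells with them 128, 157, 85.5 and 54.4 CPM. The difference was 2.94 on the log2 scale (SE 0.23, adjusted p = 0.000116), higher in 4 of 4 libraries. It passed the test under each of the 9 alternatives, with values from 2.71 to 3.09, among them the neutrophil lineage alone and the other hematopoietic cells alone.

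*Trp53* was also higher in cells with proliferation UMIs, at 66.6 against 38.6 CPM and 81.7 against 40.0 CPM in CONT1 and ABL1 and 102 against 57.4 CPM in ABL2, though not in CONT2, at 58.4 against 59.7 CPM (0.62, SE 0.17, adjusted p = 0.0157). *Ccnd2* was lower, at 19.0 against 24.2 CPM, 15.4 against 18.6 CPM, 18.1 against 40.4 CPM and 21.9 against 34.3 CPM in CONT1, ABL1, CONT2 and ABL2 (-0.64, SE 0.16, adjusted p = 0.0114, lower in 4 of 4 libraries). *Cdkn1b* had 36.8 against 30.7 CPM, 35.5 against 30.6 CPM, 154 against 176 CPM and 47.7 against 44.1 CPM (0.06, SE 0.12, adjusted p = 0.681). *Cdkn1a* (-0.27, SE 0.16), *Mdm2* (-0.20, SE 0.16), *Cdkn1c* (-0.22, SE 0.44) and *Ccnd1* (-0.98, SE 0.46) were not called.

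Here 2 of 8 members tested were higher and 1 lower, beside 25.9% and 26.1% of 10324 genes, so 52% of all genes tested were called. Of 27 G1 to S genes 23 were higher and 0 lower, while of 27 p53 targets 2 were higher and 9 lower. The calls of *Trp53* and *Ccnd2* did not hold throughout: in the neutrophil lineage alone, and without the library term, neither passed (highest adjusted p over their alternatives 0.261 and 0.249), and in the other hematopoietic cells alone *Trp53* did not (0.44, adjusted p = 0.261).

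**Figure D5:**
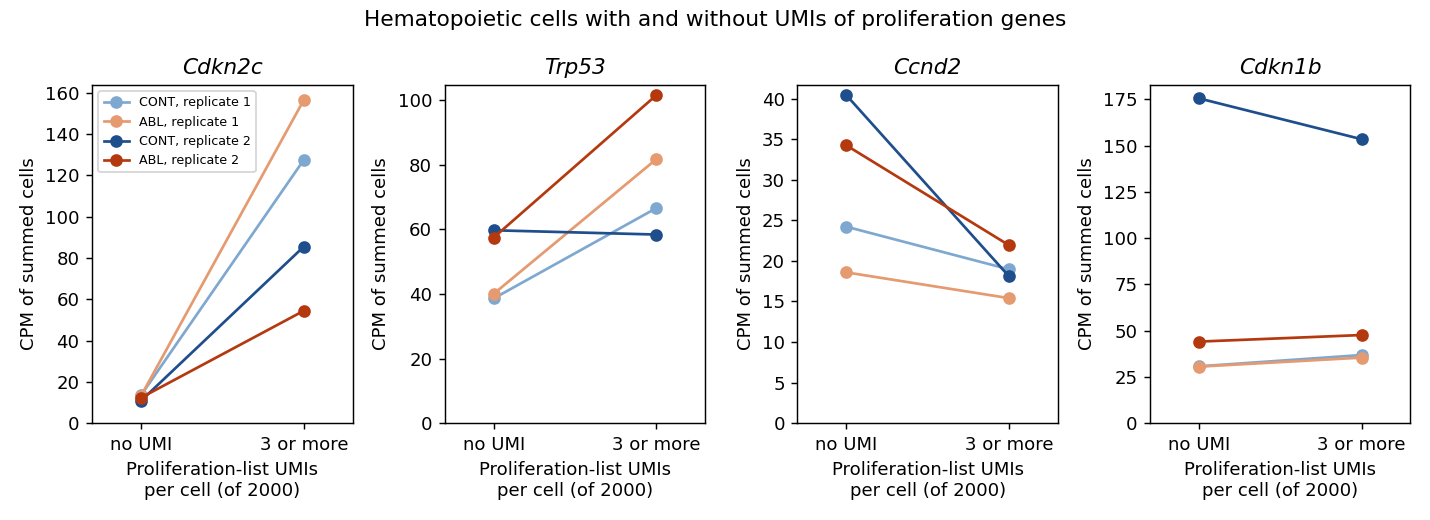
Level (CPM of summed cells) of 4 members in hematopoietic cells with no UMI and with 3 or more UMIs of proliferation genes, each line 1 library. Cdkn2c rises in all 4 libraries, from 10.9 to 13.5 CPM up to 54.4 to 157 CPM, and Ccnd2 falls in all 4; Trp53 does not rise in CONT2, the library where Cdkn1b is highest.

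Other genes followed the members over the 36 sums of a class and library with at least 20 cells (Pearson's r of log2(CPM + 10) among 5889 genes, given as a description since sums of 1 library share its depth and free RNA). *Cdkn2c* was most like *Cks1b* (r = 0.915), *Ube2s* (0.906) and *Tipin* (0.898). *Cdkn1c* was most like *Igfbp7* (0.928), *Osmr* (0.927) and *Fermt2* (0.923). *Cdkn1a* was most like *Pxdc1* (0.925), *Zcchc14* (0.924) and *Irf2bpl* (0.920). *Trp53* followed *Cnbp* (0.932), *Nono* (0.915) and *Hnrnpa2b1* (0.913), which are RNA- or DNA-binding proteins of most cells. *Ccnd2* followed *Sesn3* (0.885), *Gem* (0.852) and *Bag5* (0.839). *Cdkn1b* followed *Atf7ip* (0.834), *Stag2* (0.816) and *Prpf18* (0.811). *Ccnd1* and *Mdm2* had no close partner, with *Dirc2* (0.751) and *Klhl5* (0.707) at the head.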

How the data were processed

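The authors aligned reads of 4 libraries to mm10 with reporter and recombinase sequences added (Cell Ranger, per the labels) and deposited raw UMI counts for all barcodes. The 10 members and the gene lists were chosen with earlier results of these data known. Named genes were all members, list genes past the threshold in reticular-like or mesenchymal cells (up to 5 each way), the 3 of highest level per list and the 3 genes most like each member that reached 50 CPM.

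Barcodes counted as cells had 500 or more genes and no more than 20% mitochondrial UMIs (version 2), or 1000 or more genes and no more than 15% (version 3). Their depth was also no less than 1/10 of that at percentile 99 among the 3000 deepest. These cells contained 56.7% to 85.3% of UMIs. Empty droplets were barcodes of 300 UMIs or fewer. Doublets were called by Scrublet in scanpy 1.11.5 (2 to 78 cells per library, 0.0832% to 2.27%, so the call may not have worked in CONT of replicate 2) and removed only as an alternative. Libraries were clustered in Seurat 5.3.0 (2000 variable genes, 30 components, 20 neighbours, resolution 0.8), mesenchymal cells of each replicate after CCA integration, without 74 genes, among them the members. Clusters were named from 147 markers by a scoring rule set after the data were seen (at least 3 markers detected, score at least 0.25, margin 0.1), and stayed unnamed where more markers of another class than of their own were among the 10 leading genes by fold against cells of the library outside the class. Against mesenchymal cells alone 3 reticular-like clusters had more hematopoietic than reticular markers among their leading genes in a library, in 1 case through 1 dendritic marker. Leaving them out was an alternative. Mural and Schwann cell clusters were counted as mesenchymal, and these names were not used when mesenchymal cells were clustered again.

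UMIs were summed per library and class and tested with edgeR 4.0.16 (R 4.3.3; quasi-likelihood, TMM, filterByExpr, Benjamini-Hochberg over all genes, threshold 0.05) with replicate or library as a block. By the study's design same-numbered libraries came from both femurs of the same mice, which the Y-linked genes put in doubt. The tests between lineages and by proliferation UMIs took the 4 libraries as independent, with 3 residual degrees of freedom. If CONT and ABL of a replicate share their mice, these tests count the replicates too generously. Over genes, the deviations of same-numbered libraries correlated at 0.754 (reticular-like), 0.443 (mesenchymal) and 0.519 (hematopoietic), which includes the shared chemistry. DESeq2 1.42.0, other scalings, filters, clusterings and cell sets were alternatives; 7 were added after the data were seen. The fits were tested on simulated data. Intervals are 95% and floors are 3 counts, for counting error only. Promoters are from RefSeq (6 of 10 members had a window outside their own exons) and gene positions from GENCODE M21.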

Additional observations from a re-analysis of the deposited data

Results flagged for a closer look

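For 3 members the ABL effect had one sign in both replicates of a group of cells and the opposite sign in both replicates of another. These 5 differences were not tested. The share of all genes with such a pattern was not computed. With 2 replicates an agreement of signs says little, and some of the ratios were small. *Cdkn2c* had a mean log2 ratio of 0.85 in mesenchymal and -0.44 in hematopoietic cells, a difference of 1.29. *Trp53* had -0.31 in mesenchymal cells against 0.23 in hematopoietic cells (difference -0.54) and 0.58 in the neutrophil lineage (difference -0.88), and -0.08 in reticular-like cells against the neutrophil lineage (difference -0.65). *Mdm2* had 0.19 in mesenchymal and -0.32 in erythroid-like cells, a difference of 0.52.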

How the results depend on the processing

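Without the replicate block 0 members were called higher in reticular-like, mesenchymal or hematopoietic cells, where 0 of all genes passed (326, 1200 and 841 genes had an unadjusted p under 0.05), 1 was lower in mesenchymal than hematopoietic cells, and 1 was higher and 0 lower in cells with proliferation UMIs. In reticular-like cells 0 members were called with DESeq2, without integration and in cells with a Y-linked and no *Xist* UMI; the 4 Y-linked genes differed there between the femurs of a replicate, which puts the matching of femurs in doubt. In mesenchymal cells 0 were called with free RNA subtracted, and in hematopoietic cells 0 with doublets removed or without the neutrophil lineage. Over mesenchymal against hematopoietic cells 5 were higher with no filter on low counts, *Cdkn2a* and *Cdkn2b* being added, and 1 lower with total counts. In cells with proliferation UMIs 2 were lower with DESeq2, 1 was higher and 2 lower in the neutrophil lineage alone, and 1 was higher in the other hematopoietic cells. Without thinning 290 instead of 131 of 480 shares of cells reached 10%. Over all genes, DESeq2 called 84 higher and 73 lower in reticular-like cells (284 and 256 with edgeR), 399 and 238 in mesenchymal cells (210 and 71) and 214 and 49 in hematopoietic cells (459 and 311). Where these calls were lost the cause was not tested.

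The signs that changed all belonged to differences that were not called with the main settings. In reticular-like cells *Cdkn1b* was 0.07 with total counts, 0.01 in cells with a tdTomato UMI and 0.04 with free RNA subtracted, *Mdm2* 0.08 with total counts, 0.09 with doublets removed and 0.14 in cells with a Y-linked and no *Xist* UMI, and in those cells *Cdkn2c* was -0.02 and *Ccnd2* 0.24. Without the 3 reticular-like clusters flagged for hematopoietic markers *Cdkn1b* was 0.09 and *Mdm2* 0.08. In hematopoietic cells *Cdkn1a* was 0.28 with free RNA subtracted, and without the neutrophil lineage *Cdkn1a* was 0.41, *Trp53* -0.17 and *Mdm2* 0.08. *Cdkn1c* of erythroid-like cells was 0.09 without the block. Between lineages *Trp53* was 0.02, *Mdm2* 0.15 and *Ccnd1* 0.08 with total counts, which moved the median of all genes from 0.08 to 0.32. In the test of the difference between reticular-like and hematopoietic cells *Mdm2* was -0.01 with no filter, *Ccnd1* 0.18 with DESeq2, 0.18 with DESeq2 size factors and 0.07 with total counts, and *Ccnd2* 0.09 with DESeq2 and with its size factors. In cells with proliferation UMIs of the neutrophil lineage alone *Cdkn1a* was 0.49 and *Cdkn1b* -0.57 (adjusted p = 0.0194, edgeR), and in the other hematopoietic cells *Cdkn1c* was 0.09 and *Mdm2* 0.16.

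With 2 replicates and 1 residual degree of freedom, the ABL tests borrow their spread from other genes, and leaving out a replicate leaves values with no test. *Ccnd1* was then 1.53 and 2.31 in reticular-like, 2.11 and 3.53 in mesenchymal and 1.08 and 3.35 in hematopoietic cells for replicates 1 and 2 alone, and *Cdkn2a* of mesenchymal cells 2.45 and 2.71, on the log2(CPM + 1) scale, which understates changes of genes this low.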
